A study of Mus musculus with 6 samples.

Results

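The 10 genes described here encode matricellular proteins and other proteins of activated fibroblasts. They were chosen by name, with earlier results of these data known, and found in the deposited count table through their mouse Ensembl IDs. They are Fn1, Tnc, Thbs1, Thbs2, Sparc, Postn, Spp1, Vcan, Dpt and Fap. All 10 were found among the 55385 mouse genes of the table, and all 10 passed the filter on low counts that left 18504 tested genes. PDVC57, the source of the libraries, is a mouse line established from a squamous cell carcinoma. Of the 6 RNA-seq libraries, 3 carried a Sox2 knockout (genotype label Sox2 KO) and 3 a Sox2 overexpression (genotype label Sox2 overexpression). Sox2 encodes a transcription factor of stem cells. The series' design text calls the cells Sox2 low and Sox2 high and places their origin in grafted tumours, so cells of the host animal could be present. No unmodified PDVC57 library entered the comparison, and the labels state neither the number of clones, the promoter that drives Sox2, nor the animals behind each library. The p-values below therefore measure the spread between these libraries, which may be technical.

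Matricellular proteins are secreted into the matrix and act on cells through surface receptors more than they bear load. Fibronectin and tenascin are adhesive glycoproteins that integrins bind, and thrombospondins, SPARC, periostin and osteopontin tune adhesion, collagen assembly and growth factor signalling. Versican and dermatopontin belong to the matrix around fibroblasts, and FAP is a surface protease by which activated fibroblasts of tumours and wounds are recognised. In skin tumours these proteins come mainly from the stroma, but carcinoma cells can make several of them.

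With Sox2 overexpression, 8 of the 10 genes were lower and none was higher past an adjusted p of 0.05 (edgeR quasi-likelihood test, Benjamini-Hochberg adjustment over all tested genes). Of all tested genes, 31.6% passed this threshold, 18.0% lower and 13.6% higher. The median log2 fold change of the 10 genes, overexpression over knockout, was -3.31, against -0.02 for all tested genes. The sizes spread widely. Dpt, Postn, Fap and Vcan were lower by factors of 1034, 235, 127 and 58.8 in mean CPM (counts per 1000000, relative to the TMM-normalized library size). Sparc and Spp1 were lower by factors of 12.9 and 7.67, and Tnc and Fn1 by factors of 3.65 and 3.04. The thrombospondins Thbs1 and Thbs2 did not pass the test. For the 8 genes every overexpression library lay below every knockout library, which held for 26.5% of tested genes. Counting Thbs1, whose order was the opposite, the groups did not overlap for 9 of the 10, against 50.9% of tested genes. In bulk RNA, fewer cells of a type and less RNA per cell cannot be told apart.

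Promoter sequence was at hand for 7 of the 10 genes in the RefSeq table for GRCm38.p6. Shown are 4 windows of up to 250 bases before the transcription start, written 5′ to 3′ on the strand of the gene and free of annotated exons. They stand for the largest falls (Postn, Dpt), a smaller fall (Spp1) and a gene that did not pass the test (Thbs2). Capitals mark matches, on either strand, to the motifs named after the sequences.
Postn (chr3:54360857-54361106, plus strand): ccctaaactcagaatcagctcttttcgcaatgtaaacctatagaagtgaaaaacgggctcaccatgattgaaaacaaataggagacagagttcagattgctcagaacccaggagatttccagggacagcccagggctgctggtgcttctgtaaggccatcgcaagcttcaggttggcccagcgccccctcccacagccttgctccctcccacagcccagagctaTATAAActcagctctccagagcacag
Dpt (chr1:164796413-164796643, plus strand): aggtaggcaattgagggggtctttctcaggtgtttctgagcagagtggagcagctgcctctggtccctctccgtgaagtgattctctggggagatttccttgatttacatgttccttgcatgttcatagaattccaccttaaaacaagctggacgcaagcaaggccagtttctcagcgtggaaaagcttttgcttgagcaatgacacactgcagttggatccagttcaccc
Spp1 (chr5:104434861-104435110, plus strand): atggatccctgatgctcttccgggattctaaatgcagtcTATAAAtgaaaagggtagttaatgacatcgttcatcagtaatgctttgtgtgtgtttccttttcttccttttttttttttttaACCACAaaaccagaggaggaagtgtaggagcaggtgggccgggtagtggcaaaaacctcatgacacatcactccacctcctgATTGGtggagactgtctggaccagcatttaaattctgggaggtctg
Thbs2 (chr17:14694263-14694512, minus strand): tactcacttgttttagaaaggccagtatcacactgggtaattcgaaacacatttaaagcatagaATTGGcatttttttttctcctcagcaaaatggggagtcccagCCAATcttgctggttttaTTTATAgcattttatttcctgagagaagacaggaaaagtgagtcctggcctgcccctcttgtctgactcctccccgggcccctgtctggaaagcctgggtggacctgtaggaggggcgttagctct

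Letters of 7 motifs were searched on both strands, together with the CArG box, given here by its name. No pair of these motifs overlapped in the 4 windows. The TATA letters TATAAA were in 4 of the 7 windows (Postn, Tnc, Thbs2 and Spp1), and in 12.4% of all 32851 RefSeq windows of 250 bases. CCAAT was in 3 windows (Thbs2, Spp1 and Vcan), against 33.8% of all windows. The RUNX letters TGTGGT were in 2 (Spp1 and Dpt), against 14.0%. The Dpt match lies in the last 19 bases before the RefSeq start, which GENCODE M21 annotates as exon, and is therefore not in the 231 bases shown. The TATA letters lay 26 bases before the start in Postn and 211 and 126 bases before it in Spp1 and Thbs2. The GC box letters GGGCGG were in 2 windows (Tnc and Vcan), against 32.7%, and the SOX letters AACAANG were in 1 (Sparc), against 12.1%. That Sparc window lies 3103 bases from the start of the gene in the GENCODE M21 annotation, mostly over an annotated exon, and is not shown. The AP-1 letters TGANTCA were in 0 of the 7 windows, against 6.75% of all windows. The TEAD letters GGAATG were also in 0, against 12.6%, as was the CArG box, against 1.47%. A match is a description of these letters, not of a bound site.

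Library totals were 31611892 to 35827402 counts with knockout and 31247976 to 38543221 with overexpression. The Sox2 level matched the labels, at 0.685 to 1.44 CPM with knockout and 78.3 to 128 CPM with overexpression. Counts of the 10 genes summed to 2.11% to 2.18% of a knockout library and to 0.637% to 0.761% of an overexpression library. Of 12 epithelial markers, 8 were higher and 0 lower past the threshold, against 13.6% and 18.0% of all tested genes. Their summed level was 4652 to 7272 CPM with knockout and 12051 to 15949 CPM with overexpression. Of 12 fibroblast markers, a list that includes the 3 fibrillar collagen genes used below, 11 were lower, from a summed level of 59677 to 87377 CPM with knockout to 305 to 482 CPM with overexpression. Twist2, a transcription factor of dermal fibroblasts, was the exception at 39.9 CPM with knockout and 40.3 CPM with overexpression. None of the 12 was at 0 in all overexpression libraries. The part of these cell types in the levels of the 10 genes was not tested. Where in Sox2 the knockout lies is not stated.

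**Figure D1:**
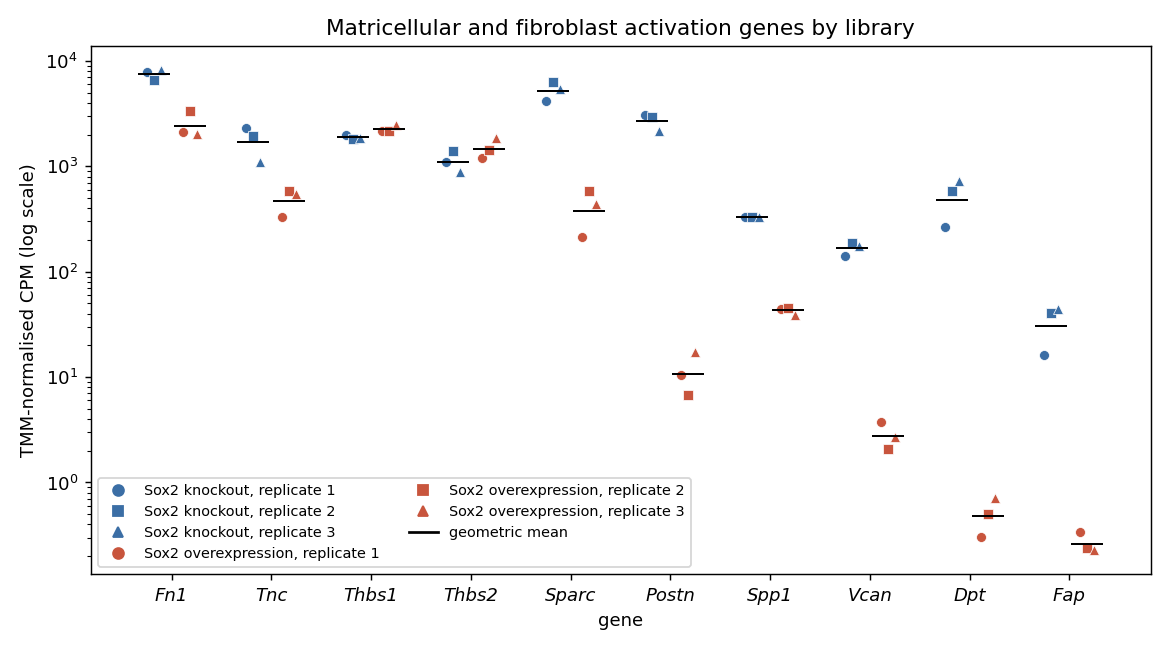
Level of each of the 10 genes in each library. The vertical axis is TMM-normalised CPM on a log scale, blue symbols are the 3 knockout libraries and red symbols the 3 overexpression libraries, and bars are geometric means. Thbs1 and Thbs2 lie at about the same height in both groups, while Postn, Vcan, Dpt and Fap lie far lower with overexpression.

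Fn1 and Tnc, the adhesive glycoproteins, fell but stayed among the more abundant of these transcripts. Fn1 (ENSMUSG00000026193, chromosome 1, 71585520 to 71653200, GRCm38) encodes fibronectin, the main ligand of integrin alpha5 beta1. Its level was 7874, 6613 and 8214 CPM in knockout replicates 1, 2 and 3 and 2125, 3314 and 2035 CPM in overexpression replicates 1, 2 and 3. The groups did not overlap, and overexpression replicate 2 was the highest of its group. The log2 fold change came to -1.60 ± 0.25 (SE, edgeR, adjusted p = 0.00143). Exons of Fn1 overlap those of Apol7d on the other strand, and counting by strand is not stated.

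Tnc (ENSMUSG00000028364, chromosome 4, 63959785 to 64047015) encodes tenascin-C, a large glycoprotein of wounds and tumour stroma. Tnc had 2298, 1925 and 1088 CPM in the knockout libraries and 331, 582 and 541 CPM in the overexpression libraries. Knockout replicate 3 was the lowest of its group by a wide margin, yet still above each overexpression library. The log2 fold change came to -1.87 ± 0.32 (SE, edgeR, adjusted p = 0.0025).

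The 2 thrombospondins, trimeric glycoproteins that bind CD47, CD36 and integrins and can inhibit angiogenesis, did not pass the test. Thbs1 (ENSMUSG00000040152, chromosome 2, 118111876 to 118127133) had 1993, 1827 and 1872 CPM with knockout and 2147, 2149 and 2475 CPM with overexpression. Each overexpression library lay above each knockout library, as for 24.4% of tested genes, but the log2 fold change came to 0.25 ± 0.17 (SE, edgeR, adjusted p = 0.293). Exons of Thbs1 overlap those of Gm29233 on the other strand. Thbs2 (ENSMUSG00000023885, chromosome 17, 14665500 to 14694235) had 1093, 1385 and 879 CPM with knockout and 1200, 1419 and 1864 CPM with overexpression, so the groups overlapped. Its log2 fold change came to 0.42 ± 0.24 (SE, edgeR, adjusted p = 0.216). Both directions depend on the scaling. When libraries were scaled to the epithelial markers, the median of all tested genes moved to -1.20 and the log2 fold changes of Thbs1 and Thbs2 were -0.94 (adjusted p = 0.0028) and -0.76 (adjusted p = 0.0106), both still above that median.

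Sparc, Spp1 and Postn, secreted proteins that bind collagen, mineral or integrins, all fell, by very unequal amounts. Sparc (ENSMUSG00000018593, chromosome 11, 55394500 to 55423183) encodes a collagen-binding glycoprotein needed for ordered collagen fibrils. Its level was 4132, 6274 and 5458 CPM with knockout and 214, 577 and 443 CPM with overexpression. The log2 fold change of Sparc came to -3.68 ± 0.38 (SE, edgeR, adjusted p = 0.000144).

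Spp1 (ENSMUSG00000029304, chromosome 5, 104435118 to 104441050) encodes osteopontin, a ligand of integrins and CD44 made by macrophages, bone cells and many carcinomas. It was the steadiest of the 10 genes within the knockout group, at 331, 327 and 331 CPM. With overexpression it had 44.3, 45.7 and 39.0 CPM, and its log2 fold change came to -2.94 ± 0.15 (SE, edgeR, adjusted p = 2.53e-06). Macrophages are a known source. The 10 genes listed as their markers summed to 26.1 to 114 CPM with knockout and 14.1 to 28.4 CPM with overexpression. Ptprc, which is not particular to macrophages, alone held 10.6, 21.6 and 88.1 CPM of the sums in knockout replicates 1, 2 and 3. In overexpression replicates 1, 2 and 3 it held 0.427, 0.541 and 0.506 CPM. Of the 7 tested macrophage markers 3 were lower and 0 higher, against 18.0% and 13.6% of all tested genes. Csf1r and Cd68 had higher means with overexpression (11.65 and 8.62 CPM) than with knockout (6.42 and 6.13 CPM), without passing the test. The other 5 had log2 fold changes below 0. No macrophage marker was at 0 in all overexpression libraries, but 2, Adgre1 and Fcgr1, had at most 3 counts in each. The part of macrophages in the level of Spp1 was not tested.

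Postn (ENSMUSG00000027750, chromosome 3, 54361109 to 54391037) encodes periostin, an integrin ligand of stromal fibroblasts that helps cross-link collagen. It fell from one of the most abundant of the 10 transcripts, at 3046, 2934 and 2145 CPM, to 10.5, 6.80 and 17.3 CPM. The log2 fold change came to -7.87 ± 0.43 (SE, edgeR, adjusted p = 3.54e-06). The fibrillar collagen genes Col1a1, Col1a2 and Col3a1 moved by -7.55, -7.74 and -8.22 on the same scale.

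Vcan and Dpt, components of the matrix between fibroblasts, fell to a few CPM or less. Vcan (ENSMUSG00000021614, chromosome 13, 89655312 to 89742509) encodes versican, a large proteoglycan that binds hyaluronan. Its counts were 4768, 5684 and 6389 with knockout and 124, 61 and 107 with overexpression. In CPM these were 140, 188 and 175 against 3.78, 2.06 and 2.71, a log2 fold change of -5.87 ± 0.27 (SE, edgeR, adjusted p = 1.93e-06).

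Dpt (ENSMUSG00000026574, chromosome 1, 164796644 to 164824266) encodes dermatopontin, a small protein of dermal matrix that binds decorin and collagen. It had the largest fall of the 10, from 9108, 17463 and 26548 counts with knockout to 10, 15 and 28 with overexpression. In CPM these were 267, 578 and 728 against 0.305, 0.507 and 0.708, so that the lowest knockout library was still far above the highest overexpression library. The log2 fold change came to -9.98 ± 0.53 (SE, edgeR, adjusted p = 3.21e-06).

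Fap (ENSMUSG00000000392, chromosome 2, 62500943 to 62574075) encodes fibroblast activation protein, a membrane serine protease and the usual marker of activated fibroblasts in carcinomas. It was the scarcest of the 10, with 547, 1233 and 1630 counts in the knockout libraries and 11, 7 and 9 in the overexpression libraries. The levels were 16.0, 40.8 and 44.7 CPM against 0.336, 0.237 and 0.228 CPM. The log2 fold change came to -6.97 ± 0.49 (SE, edgeR, adjusted p = 1.33e-05). Knockout replicate 1 had less than the other 2 knockout libraries.

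Compared per length, the order of the 10 genes differed between the groups. Levels were divided by the length of the longest coding transcript in GENCODE M21, in kilobases. In the knockout libraries Sparc led with 2299 ± 470 CPM per kilobase (SD, n = 3), followed by Fn1 at 910 ± 101 and Postn at 845 ± 153, whose ranges overlapped. Thbs1 (324 ± 14.6), Dpt (304 ± 136), Tnc (249 ± 87.2), Spp1 (219 ± 1.35) and Thbs2 (190 ± 43.1) came next, and each overlapped its neighbour in this order. Vcan and Fap were last, at 13.5 ± 2.01 and 12.3 ± 5.65 CPM per kilobase. In the overexpression libraries Thbs1 led with 386 ± 32.3 CPM per kilobase, before Fn1 at 299.6 ± 85.9, Thbs2 at 253 ± 57.4 and Sparc at 179 ± 79.8, each overlapping the next. Tnc (68.2 ± 19.0), Spp1 (28.5 ± 2.34) and Postn (3.60 ± 1.66) followed without overlap. Dpt (0.294 ± 0.117) and Vcan (0.229 ± 0.07) overlapped, and Fap was last at 0.097 ± 0.0218.

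The genes were then set against fibrillar collagen within each library, a ratio that does not depend on how libraries are scaled. Col1a1, Col1a2 and Col3a1, the main fibrillar collagen genes of fibroblasts, together held 5.29% to 7.47% of knockout counts and 0.0249% to 0.0385% of overexpression counts. Per 1000 counts of these 3 genes, Thbs1 had 38.8, 23.4 and 25.6 counts in the knockout libraries and 8965, 7921 and 6591 in the overexpression libraries. Thbs2 had 21.3, 17.7 and 12.0 against 5011, 5229 and 4963. Fn1 had 153, 84.7 and 112 against 8876, 12215 and 5419, and Tnc 44.8, 24.6 and 14.9 against 1383, 2146 and 1441. The geometric mean ratio was 306-fold higher with overexpression for Thbs2, 272-fold for Thbs1, 73.9-fold for Fn1 and 63.9-fold for Tnc. With summed counts of Dcn, Lum and Pdgfra as the denominator, the log2 differences of Thbs2, Thbs1 and Fn1 were 8.92, 8.75 and 6.87, in place of 8.26, 8.09 and 6.21, and that of Tnc was 6.66.

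Spp1 and Sparc were intermediate. Spp1 had 6.45, 4.19 and 4.52 counts per 1000 collagen counts with knockout and 185, 169 and 104 with overexpression, and Sparc 80.5, 80.3 and 74.6 against 895, 2127 and 1180. Their ratios were 29.8-fold and 16.7-fold higher with overexpression. Vcan was 3.81-fold higher, at 2.39 to 2.72 with knockout and 7.21 to 15.8 with overexpression. Postn ran level with the collagens, at 59.3, 37.6 and 29.3 with knockout and 43.8, 25.1 and 46.0 with overexpression, a difference of -0.12 on the log2 scale. Fap overlapped too, at 0.312 to 0.61 against 0.606 to 1.40, only through knockout replicate 3 (0.61) and overexpression replicate 3 (0.606). Dpt was the only one of the 10 whose ratio was lower in each overexpression library, at 5.20, 7.40 and 9.94 against 1.28, 1.87 and 1.89. With the other denominator, the log2 differences of Spp1, Sparc, Vcan, Fap, Postn and Dpt were 5.56, 4.73, 2.60, 1.63, 0.54 and -1.47, in place of 4.90, 4.06, 1.93, 0.97, -0.12 and -2.14.

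In all, the ratio was higher in every overexpression library for 7 of the 10 genes, against 97.1% of tested genes, with a denominator that was itself far lower there. It was lower in every overexpression library for 1 of the 10, Dpt, against 0.211% of tested genes, and overlapped for 2. The median log2 difference of the ratio over all tested genes was 7.83, which Thbs1 (8.09) and Thbs2 (8.26) exceeded and the other 8 genes did not reach. With 3 libraries against 3, a two-sided exact permutation test cannot give less than p = 0.1. It gave 0.1 for each of the 8 genes that did not overlap, 0.125 after adjustment over the 10 genes. For Fap and Postn it gave 0.2 and 0.8, or 0.222 and 0.8 adjusted.

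**Figure D2:**
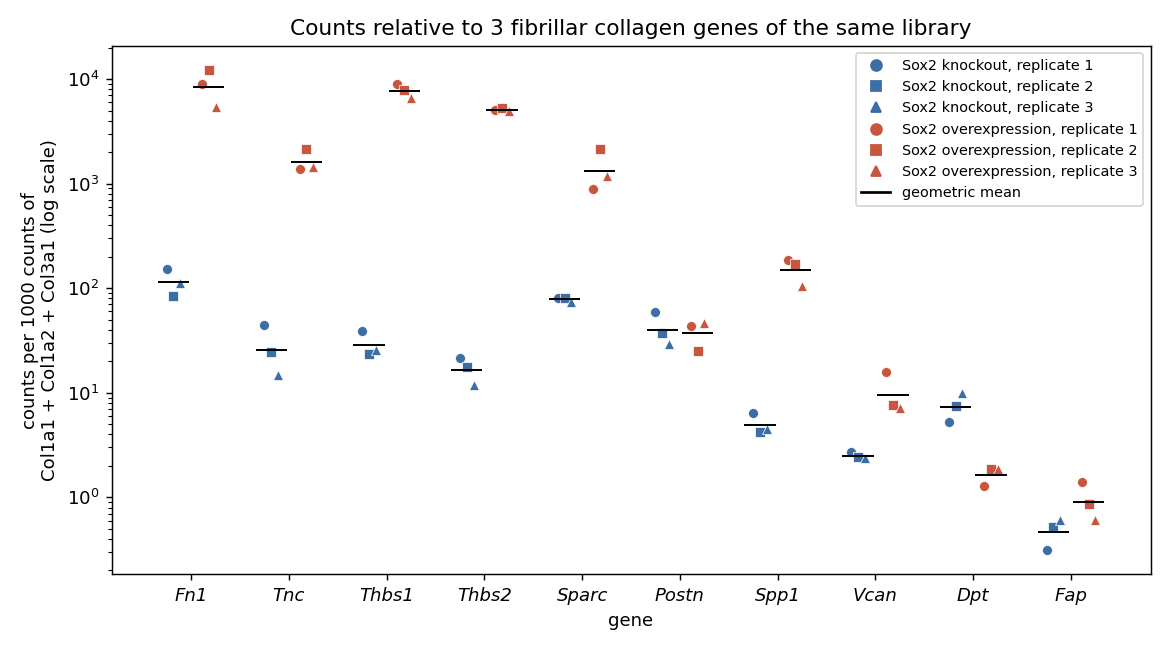
Counts of each gene per 1000 summed counts of Col1a1, Col1a2 and Col3a1 in the same library, on a log scale. Blue symbols are the 3 knockout and red symbols the 3 overexpression libraries, and bars are geometric means. The groups are far apart for Fn1, Tnc, Thbs1, Thbs2, Sparc and Spp1, and overlap for Postn and Fap.

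Within the knockout group the genes did not vary together. Dpt and Fap were lowest in replicate 1 and highest in replicate 3, with a 2.73-fold and a 2.79-fold range. Tnc and Postn were highest in replicate 1 and lowest in replicate 3, with a 2.11-fold and a 1.42-fold range. Sparc and Vcan were lowest in replicate 1 and highest in replicate 2, with ranges of 1.52-fold and 1.35-fold. Thbs1 varied 1.09-fold and Spp1 1.01-fold. Knockout replicate 3 also had the highest summed level of endothelial markers (122 CPM, against 33.4 and 53.3) and the lowest of epithelial markers. Krt5 and Krt14, at 218 and 347 CPM, were lowest there with most of the epithelial list. Epcam, Cdh1 and Krt18 were lowest in replicate 2, and Cdh1 was highest in replicate 3, at 309 CPM. The endothelial marker Cldn5 was highest in replicate 1, at 3.08 CPM against 1.09 and 1.15. The sum of macrophage markers was highest in knockout replicate 3 too, at 114 CPM, of which Ptprc alone held 88.1 CPM. The macrophage marker Mrc1 was lowest there, at 0.274 CPM against 2.58 and 0.893. The part of these cell types in the spread was not tested. With overexpression, Sparc had the widest range, 2.69-fold, with its lowest value in replicate 1, and Thbs1 the narrowest, 1.15-fold.

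**Figure D3:**
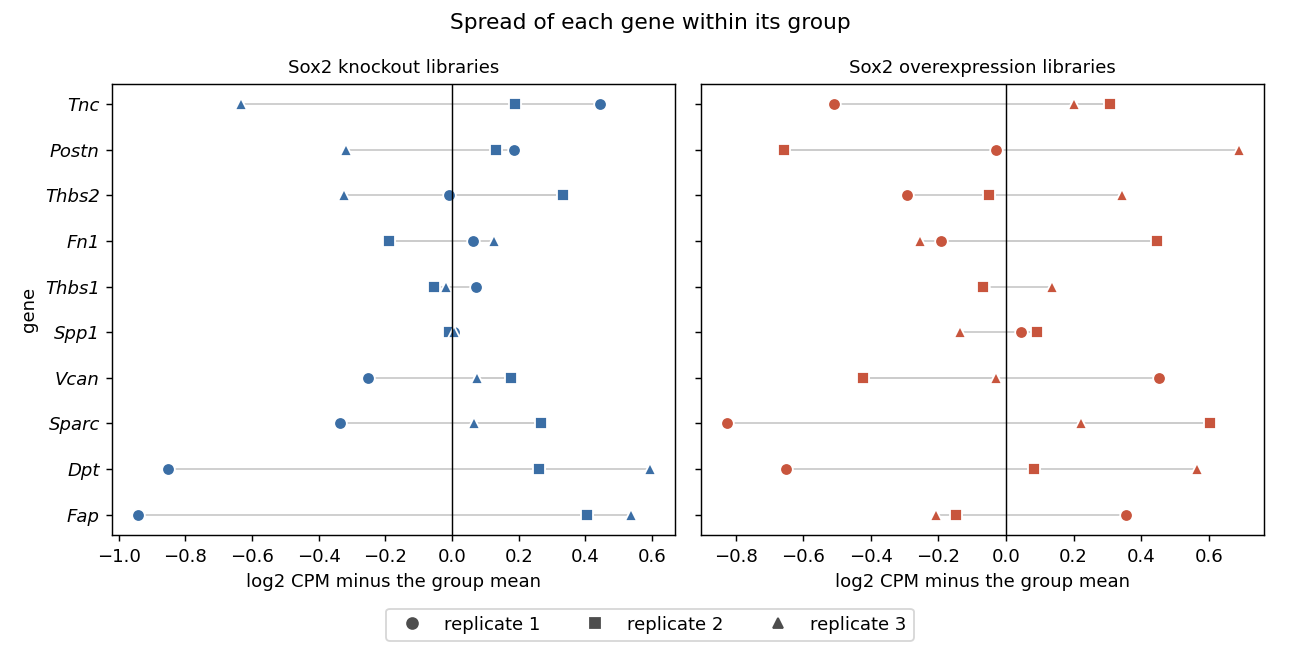
Deviation of each library from the mean of its own group, in log2 CPM, for each of the 10 genes. Circles, squares and triangles are replicates 1, 2 and 3, with knockout libraries on the left and overexpression libraries on the right. In the knockout panel replicate 3 lies to the left for Tnc and Postn and to the right for Dpt and Fap.

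Many relatives of these proteins fell as well. A list of 29 genes held other thrombospondins, tenascins, CCN proteins, SPARC-like proteins, osteopontin-like mineral-binding proteins, proteoglycans related to versican and peptidases related to FAP. Of these, 22 passed the filter on low counts. Of the 22, 14 were lower and 0 higher past the threshold (edgeR), against 18.0% and 13.6% of all tested genes. Their median log2 fold change was -3.50, against -0.02 for all tested genes. Of the proteoglycans only Ncan was tested, and it did not pass (edgeR, adjusted p = 0.357). Of the mineral-binding proteins only Dmp1 was tested, with 22, 12 and 13 counts with knockout and 3, 5 and 4 with overexpression. Dmp1 and Comp, at the edge of the threshold, lost the call in 8 and 1 of 13 alternatives. The smallest p-value belonged to Fstl1, a secreted SPARC-like protein, with 1108, 1705 and 1736 CPM in the knockout libraries and 8.97, 13.0 and 12.6 CPM in the overexpression libraries. Its log2 fold change came to -7.04 ± 0.30 (SE, edgeR, adjusted p = 1.56e-06).

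The families were divided in different ways. Among thrombospondins, Thbs3 fell from 228 ± 64.8 to 54.3 ± 2.57 CPM (SD, n = 3 each) and Thbs4 from 76.4 ± 40.3 to 0.297 ± 0.243 CPM, with log2 fold changes of -2.07 and -8.00 (edgeR, adjusted p = 0.000169 and 3.71e-05). Among CCN proteins, Ccn3, Ccn4 and Ccn5 fell. Ccn4 and Ccn5 had log2 fold changes of -5.11 and -6.61 (Ccn5 -7.24 without overexpression replicate 2), and Ccn3 had 1270, 2200 and 2898 counts with knockout and 7, 0 and 0 with overexpression. Ccn1 did not pass, at 869 ± 297 CPM with knockout and 1214 ± 464 CPM with overexpression (edgeR, adjusted p = 0.292). Ccn2 did not pass either, at 70.8 ± 8.32 and 83.1 ± 43.3 CPM (adjusted p = 0.618, edgeR). The tenascins Tnxb and Tnn fell, with log2 fold changes of -9.22 and -6.17 (Tnn -6.80 without overexpression replicate 3). Tnr, a further tenascin, did not pass (edgeR, adjusted p = 0.222). Among the SPARC-like genes Sparcl1, Fstl1 and Spock3 fell, while Smoc2 and Spock2 did not pass (edgeR, adjusted p = 0.80 and 0.699). Dpp4, a membrane peptidase closely related to FAP, had 892, 2979 and 3424 counts with knockout and 4, 0 and 4 with overexpression. The cytosolic relatives Dpp8 and Dpp9 did not pass, with 85.7 and 82.8 CPM with knockout and 73.1 and 91.0 CPM with overexpression.

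**Figure D4:**
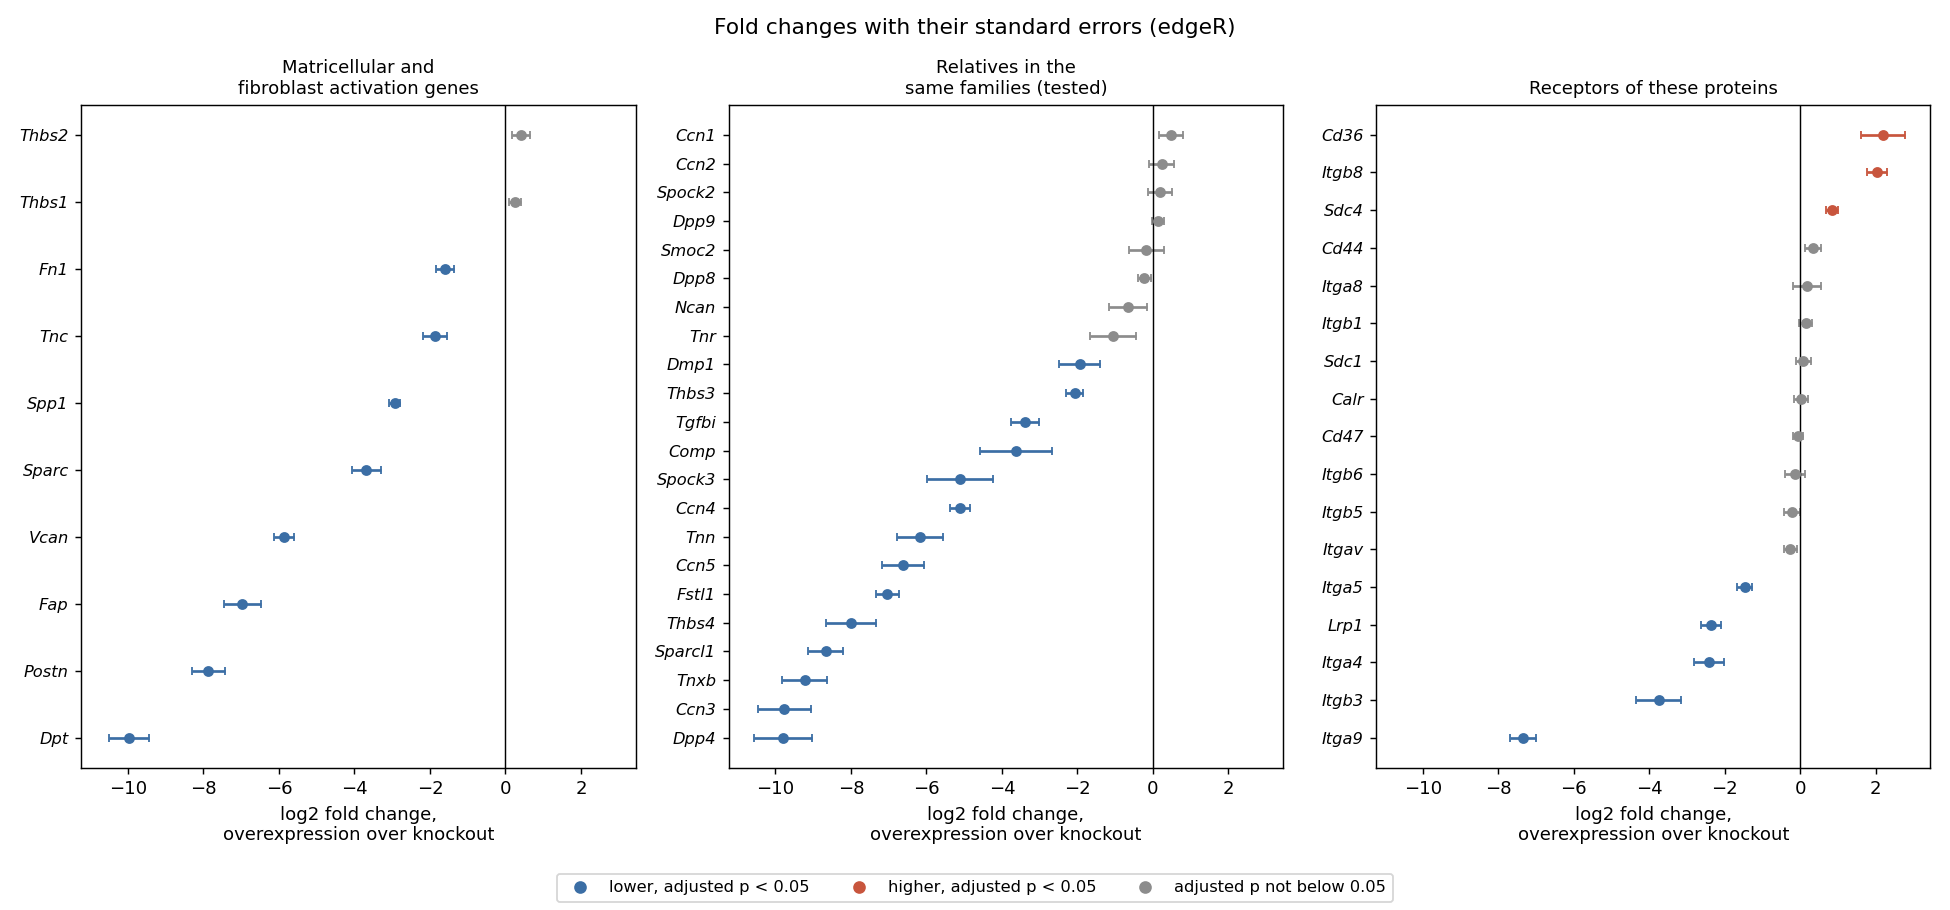
Log2 fold change, overexpression over knockout, with its standard error for the 10 genes (left), the 22 tested relatives (middle) and the 17 receptors (right). Blue marks genes lower and red genes higher at an adjusted p under 0.05, and grey the rest. In the left and middle panels 8 of 10 and 14 of 22 points are blue, while the receptors lie on both sides of 0.

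In the fit reported, the receptors showed no common shift. Of 17 receptors of these proteins, 5 were lower and 3 higher past the threshold, against 18.0% and 13.6% of all tested genes. Their median log2 fold change was -0.06, against -0.02 for all tested genes. This depended on the scaling. Scaling to the epithelial markers moved the median of all tested genes to -1.20 and gave 13 receptors lower and 1 higher. Itga9, the alpha chain of an integrin that binds tenascin-C and osteopontin, had the smallest p-value. It fell from 16.9, 18.4 and 23.5 CPM to 0.061, 0.135 and 0.152 CPM, with a log2 fold change of -7.34 ± 0.35 (SE, edgeR, adjusted p = 2.09e-06). The other 4 that fell were Itgb3 (-3.75), Itga4 (-2.42), the endocytic receptor Lrp1 (-2.37) and Itga5 (-1.47), the fibronectin receptor chain. Itgb3 was at -4.75 without overexpression replicate 2, which had 7.75 CPM against 1.25 and 2.45 CPM in replicates 1 and 3. Itgb8, a chain of a TGF-beta-activating integrin, had the smallest p-value among those that rose. It had 4.02, 3.21 and 2.38 CPM with knockout and 15.7, 11.0 and 12.9 CPM with overexpression, and a log2 fold change of 2.04 ± 0.27 (SE, edgeR, adjusted p = 0.000575).

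Sdc4, a syndecan that binds fibronectin and thrombospondin, rose with a log2 fold change of 0.84 (edgeR, adjusted p = 0.00337), but was at -0.35 when libraries were scaled to the epithelial markers. The thrombospondin receptor Cd36 rose from 0.387 to 1.79 mean CPM, a log2 fold change of 2.20 that was 1.51 without overexpression replicate 1. Its adjusted p of 0.0202 (edgeR) was 0.0546, 0.0522 and 0.0776 without knockout replicate 1, knockout replicate 2 or overexpression replicate 1, and 0.16 with epithelial scaling. Cd47, another thrombospondin receptor, did not pass, at 145.5 ± 8.69 and 139 ± 10.2 CPM (SD, n = 3 each, edgeR, adjusted p = 0.757). Cd44, the receptor of osteopontin and hyaluronan, did not pass either, at 631 ± 105 and 799 ± 159 CPM (edgeR, adjusted p = 0.247).

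Markers of other cells that make these proteins were measured alongside. Of 8 mural cell markers 7 were lower and 1, Notch3, higher, against 18.0% and 13.6% of all tested genes. Their summed level was 319 to 479 CPM with knockout and 91.6 to 133 CPM with overexpression. Acta2 and Tagln made up much of the knockout sum, at means of 182.5 and 89.6 CPM. Notch3 alone held 59.1, 73.7 and 63.9 CPM of the sums in overexpression replicates 1, 2 and 3. Of 8 endothelial markers 7 were tested and 6 were lower, with a sum of 33.4 to 122 CPM against 13.3 to 20.1 CPM. Tek was tested and did not pass (edgeR, adjusted p = 0.216). It held 16.9, 9.34 and 15.1 CPM of the endothelial sums in overexpression replicates 1, 2 and 3. Platelets are rich in thrombospondin-1 protein. Of 6 platelet markers, 3 were tested and 1 was lower, with sums of 15.5 to 18.7 and 10.7 to 11.4 CPM, and Treml1 was at 0 in all 6 libraries. No marker of the mural or endothelial list was at 0 in all overexpression libraries, but 3 endothelial markers had at most 3 counts in each. These were Cdh5 (0, 1 and 3 counts), Emcn (0, 2 and 0) and Cldn5 (0, 0 and 1). The mural marker Rgs5 had 0, 0 and 15 counts there. The part of these cells in the levels of the 10 genes was not tested.

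For each of the 10 genes, the most similar profile was sought among 8441 other genes with a mean log2 CPM of at least 4. Likeness was the Euclidean distance between mean-centred log2 CPM over the 6 libraries, where 0 means identical. The nearest gene to Thbs1 was Grsf1 (distance 0.064), to Tnc Angptl2 (0.25), to Thbs2 Hspb8 (0.271), to Sparc Kdelr3 (0.278) and to Fn1 Aif1l (0.367). Distances were larger for the other 5 pairs: Vcan and Mxra7 (0.514), Postn and Igsf10 (0.539), Spp1 and Copz2 (0.55), Fap and Serping1 (0.583) and Dpt and Clec3b (0.713). The median distance to all candidates was 12.3 for Dpt and 0.689 for Thbs1. Clec3b fell from 116, 349 and 434 CPM to 0.214, 0.406 and 0.405 CPM, lowest in knockout replicate 1 as Dpt was. Angptl2 had 693, 612 and 367 CPM with knockout and 118, 169 and 184 CPM with overexpression, lowest within the knockout group in replicate 3 as Tnc was.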

How the data were processed

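RNA of 6 PDVC57 libraries was sequenced after preparation with a single-cell or low-input kit, per the labels. The authors deposited whole-number counts per gene with no normalization. The submitters' processing notes name kallisto 0.44.0 and mm10. The annotation, the strand setting and any rounding of estimated counts are not given in the sources used here. Left out were 96 rows without a mouse gene (up to 2.23e-05% of the counts of 1 library). Symbols, positions and transcript lengths came from GENCODE M21 (GRCm38). Promoter windows came from RefSeq (GRCm38.p6).

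Genes were kept by filterByExpr (minimum count 10, minimum total 15), TMM-normalized and tested in edgeR 4.0.16 (quasi-likelihood, R 4.3.3) with the group as the only term. P-values were Benjamini-Hochberg adjusted over 18504 genes, threshold 0.05. Standard errors are the fold change divided by the square root of F. The fit was tested on simulated counts in which few genes changed, as many up as down. Changes as many and as large as those seen here were not simulated. Alternatives were RLE, upper-quartile and epithelial-marker scaling, no filter, robust dispersion, a replicate block, DESeq2 1.42.0, another denominator for the collagen ratio and leaving out each library. The members and lists were chosen with earlier results of these data known. Named were the 10 genes, Sox2, the collagen denominators, the gene with the smallest p-value in each direction among relatives and receptors, and the nearest profile to each of the 10. Other names were chosen after their values were seen.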

Additional observations from a re-analysis of the deposited data

Results flagged for a closer look

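Reads on the mCherry sequence, a red fluorescent reporter that is no mouse gene and entered no comparison, numbered 8 in knockout replicate 3. This is above the floor of 3 counts set here, but was not tested against a background of stray reads. Knockout replicate 2 had 1 such read and the other 4 libraries had 0.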

How the results depend on the processing

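The count of 8 lower and 0 higher genes among the 10 was unchanged in each fit that left out 1 library and under each alternative except epithelial scaling, which called 10 lower. That scaling moved the median of all tested genes from -0.02 to -1.20, called 13834 genes lower and 333 higher, and put the receptors at 13 lower and 1 higher. It turned Thbs1 to -0.94, Thbs2 to -0.76 and Sdc4 to -0.35. The share of lower genes among all calls was 56.9% in the fit reported and 97.6% under this scaling. Without 1 library, the count of all higher genes lay between 1446 (without knockout replicate 2) and 2599, and was 1610 without knockout replicate 3. The ratio of Postn to the collagens, -0.12 on the log2 scale, was 0.54 with Dcn, Lum and Pdgfra as the denominator and between -0.35 and 0.16 without 1 library, positive (0.16) without knockout replicate 1 or overexpression replicate 2. The count of 7 genes whose ratio was higher in every overexpression library was 8 with that denominator. It was also 8 without knockout replicate 3 or without overexpression replicate 3. With the replicate number as a block, 8 of the 10 genes were lower and 5593 genes were called in all, against 5848. Deviations of same-numbered libraries correlated at 0.0508, 0.0223 and -0.0399 across genes, and not every library correlated best with its own number, so the numbers were not taken as pairs. With overexpression Fap and Dpt rest on 7 to 28 counts per library, which limits the precision of their fold changes.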

Other observations

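Within the knockout group, some relatives of the 10 genes were lowest in replicate 1, as Dpt and Fap were, and others in replicate 3, as Tnc and Postn were. These genes were chosen after their values were seen. The tenascin Tnxb, another dermal matrix gene, had 289, 691 and 1136 CPM in knockout replicates 1, 2 and 3, lowest and highest in the same libraries as Dpt. Dpp4, the relative of Fap, had 26.1, 98.5 and 93.8 CPM, and Ccn5 had 31.0, 82.2 and 79.8 CPM, both lowest in replicate 1 and highest in replicate 2. The tenascin Tnn, in contrast, had 749, 588 and 246 CPM, and Thbs4 had 119, 70.6 and 39.4 CPM, both lowest in replicate 3 as Tnc was. Tgfbi, which encodes a relative of periostin, had 258, 232 and 123.5 CPM and was also lowest there.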
